A study of Mus musculus with 14 samples.

Results

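Temozolomide (TMZ) was the drug shared by 5 of the 10 liver tumours in the series, and those 5 were compared with the other 5. A tumour was placed among the TMZ tumours when its treatment label named TMZ, and no measured value entered the choice. TMZ is an alkylating drug: it adds methyl groups to DNA bases. The repair protein Mgmt removes the methyl group from the O6 position of guanine, mismatch repair acts on the mispairs that remain, and the resulting breaks are known to activate p53 and its targets. Hepatocytes take up and oxidise many drugs with cytochrome P450 enzymes, make bile acids from cholesterol, and in male rodents set part of this programme by the pulses of growth hormone. Liver tumours are known to lose many of these functions and to regain fetal liver proteins.

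RNA was sequenced from snap-frozen tissue of male C3HeB/FeJ mice, 18 months old, an inbred strain whose males develop liver tumours without a carcinogen. Tumours were marked Grow or Regress, and the labels do not define how this was scored. The TMZ tumours were Grow 2, Grow 3 and Grow 4, given 22 mg/kg TMZ together with 85 mg/kg SAHA (suberoylanilide hydroxamic acid, which blocks histone deacetylases), and Regress 1 and Regress 3, given 31 mg/kg TMZ alone. The other tumours were Grow 1 and Grow 5, given the solvent DMSO, Grow 6, given 100 mg/kg SAHA, Regress 2, given phosphate citrate buffer, and Regress 4, given DMSO. The 4 normal livers, all from mice given buffer, are printed beside them for level only. Injections were intraperitoneal, on 5 consecutive days of a 28 day cycle for 6 cycles. The labels do not give the time between the last injection and collection, so an acute response and a later state cannot be told apart. Every Grow tumour that received TMZ also received SAHA, so within Grow an effect of TMZ and an effect of SAHA given with it cannot be told apart.

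Values in the 5 TMZ tumours are given in the order Grow 2, Grow 3, Grow 4, Regress 1 and Regress 3, and those of the other tumours in the order Grow 1, Grow 5, Grow 6, Regress 2 and Regress 4. Levels are in CPM (counts scaled to library size, as edgeR gives them). Library totals were 4.71 to 7.11 M (mega) estimated counts in TMZ tumours, 5.96 to 13.39 M in other tumours and 5.27 to 7.47 M in normal livers. Hepatocyte identity genes were expressed throughout, with a mean log2 CPM over 27 genes of 8.90 to 9.64 in TMZ tumours, 9.21 to 9.73 in other tumours and 9.52 to 9.83 in normal livers. Grow 3 and Grow 4 were the closest pair of libraries. They correlated at 0.984 across genes (genes are not independent replicates), yet differed by more than sampling noise and were kept as 2 samples. Their sample codes differ in the last letter only, and no label says whether a code stands for an animal, so they may share one. The code of Regress 2 is also that of Normal Liver 4. Regress 1 was the one tumour whose profile lay nearer to the normal mean (r = 0.938 across genes) than to the mean of the remaining tumours (0.888).

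No gene passed the test for a difference between TMZ and other tumours. With growth class as a covariate, edgeR's quasi-likelihood test called 0 of 12882 features (0%) at a Benjamini-Hochberg adjusted p under 0.05, and the lowest adjusted p was 0.213. At an unadjusted p under 0.05 there were 1623 features (12.6%), 796 (6.18%) higher and 827 (6.42%) lower in TMZ tumours. limma-voom also called 0, with 1742 at an unadjusted p under 0.05, whereas DESeq2 called 335, of which 209 (1.62%) were higher and 126 (0.978%) lower. In counts simulated with the spread of these tumours, 25% of DESeq2's calls for this comparison were false, against 2.88% for edgeR and 3.85% for limma-voom. There edgeR called 6.06% of simulated log2 fold changes of 1, 57.8% of those of 2 and 92.3% of those of 4, so smaller differences could be missed. Leaving out Grow 2 alone brought the count of the quasi-likelihood test to 497, of which 197 (1.54%) were higher and 300 (2.34%) lower, and leaving out Regress 3 alone to 19. The log2 fold change was above 0 for 6143 features (47.7%), and its median was -0.03. All 5 TMZ tumours lay above all 5 other tumours for 98 features (0.761%) and below them for 127 (0.986%). The gene values that follow are descriptions of these 10 tumours, and none of the genes named was called by edgeR with all 10 in the fit. The 10 leading genes named below were called by DESeq2 and, with edgeR, without Grow 2, 3 of these (Nat8f2, Cyp2c54 and Elovl3) also without Regress 3, and Gpc3 was called by DESeq2 only.

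Genes that handle alkylated DNA overlapped between the groups. Mgmt stood at 7.75, 16.2, 17.1, 30.1 and 27.4 CPM in TMZ tumours and at 14.3, 6.73, 13.1, 23.1 and 9.19 CPM in other tumours. These ranges overlapped almost fully, and the log2 fold change was 0.50 ± 0.35 (SE, 95% interval -0.27 to 1.26, edgeR adjusted p = 0.531). Normal livers had 6.62 to 31.1 CPM. Msh6, a mismatch repair protein that recognises mispaired bases, had 9.3, 5.78, 7.27, 4.75 and 4.1 CPM in TMZ tumours against 12.2, 11.2, 9.38, 1.79 and 15.2 CPM in other tumours. Regress 2 held the lowest value of all 10, and the other 4 tumours without TMZ were above all 5 TMZ tumours (log2 fold change -0.71 ± 0.44). On the log2 scale the base excision glycosylase Mpg stood at -0.11 and the strand-break sensor Parp1 at -0.25, and both signs turned when 1 library was left out, that of Mpg also with SAHA as a covariate. Of 17 tested genes of alkylation and mismatch repair, 7 had a log2 fold change above 0, the median was -0.11, and 1, the DNA ligase Lig3, had an unadjusted p under 0.05 (lower). Of 21 tested genes of double-strand break repair and its checkpoint, 4 were above 0, with a median of -0.28 and 1 lower gene at that p. Over all features 47.7% were above 0 and 6.42% were lower at that p.

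Cdkn1a, the cell cycle inhibitor that p53 induces, had 16.9, 17.0, 19.2, 4.94 and 35.1 CPM in TMZ tumours against 55.5, 22.0, 34.4, 39.6 and 73.1 CPM in other tumours. In 4 of the TMZ tumours it was below every other tumour and Regress 3 lay among them, which gave a log2 fold change of -1.25 ± 0.46 (edgeR adjusted p = 0.330). Phlda3, an inhibitor of Akt that p53 induces, had 2.94, 3.39, 4.57, 1.19 and 7.17 CPM against 30.4, 3.31, 10.7, 2.98 and 31.9 CPM (log2 fold change -2.05 ± 0.73, adjusted p = 0.322). The high values were those of Grow 1 and Regress 4, both given DMSO, and of Grow 6. Plk2, a polo-like kinase induced by p53, was the only list member with no overlap between the groups. It had 8.99, 9.42, 11.2, 7.32 and 6.66 CPM in TMZ tumours and 19.5, 12.1, 14.5, 13.1 and 15.6 CPM in other tumours (log2 fold change -0.79 ± 0.22, adjusted p = 0.241). Of the 34 tested p53 targets, 2 were higher (Tigar and the death receptor Fas) and 14 lower at an unadjusted p under 0.05, against 6.18% and 6.42% of all features. The median of the list was -0.30 and 11 of the 34 lay above 0, against 47.7% of all features. Without Grow 3 and Grow 4, in which 352 (2.6%) of 13517 features were higher and 312 (2.31%) lower at that p, 0 targets were higher and 7 lower. Several targets overlapped between the groups. Mdm2, the ligase that degrades p53, had a log2 fold change of -0.36, the apoptosis promoter Bax -0.16, the cyclin Ccng1 -0.09 and the secreted factor Gdf15 -0.02, of which the last 3 turned sign under some of the alternatives, Gdf15 also under another scaling. Trp53 itself stood at -0.49 ± 0.29.

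**Figure D1:**
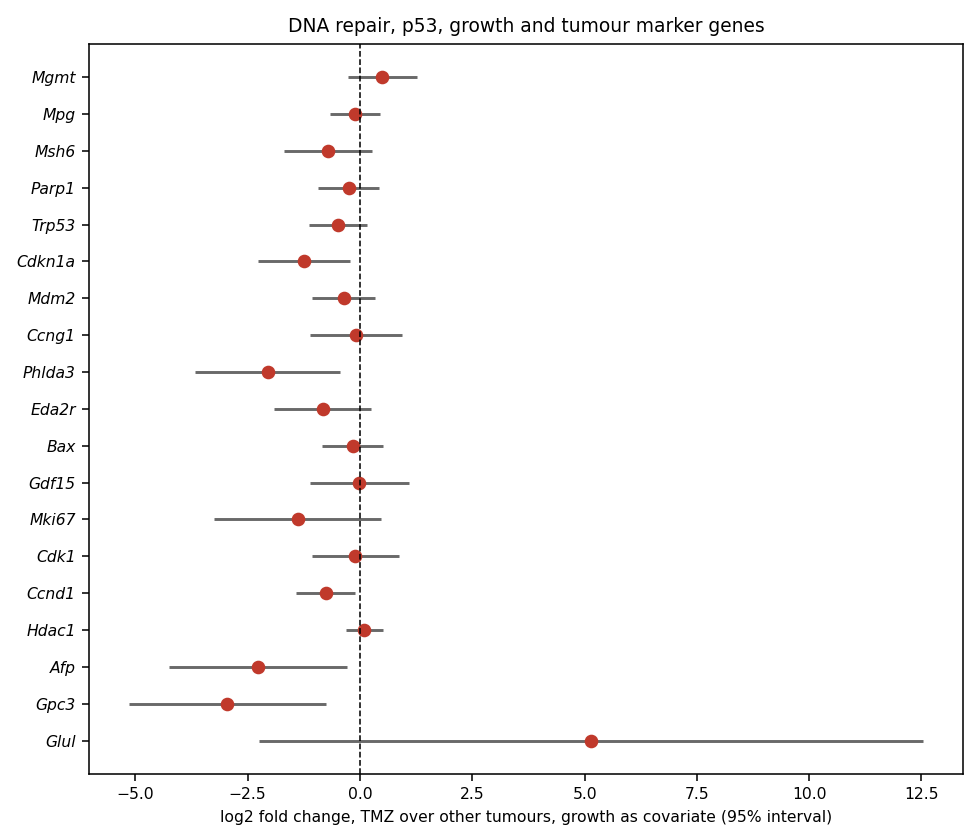
Log2 fold change of DNA repair, p53, growth and tumour marker genes, TMZ tumours over other tumours (x axis), with growth class as a covariate. Points are edgeR estimates, bars are 95% intervals and the dashed line marks 0. Mgmt sits at 0.50 with an interval across 0, Cdkn1a, Phlda3, Ccnd1, Afp and Gpc3 have intervals below 0 before adjustment over all features, and Glul has the widest interval.

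The 5 genes of smallest p on the higher side of the comparison were Nat8f2, Cyp2c54, Elovl3, Serpinb1a and Dpys, all with an edgeR adjusted p of 0.213. Nat8f2, of the Nat8 family of acetyltransferases, whose near-identical members can share reads, had 319, 786, 808, 1241 and 367 CPM in TMZ tumours against 62.4, 95.8, 86.1, 151 and 133 CPM in other tumours. The lowest TMZ tumour was above the highest of the others, the log2 fold change was 2.78 ± 0.42, and normal livers had 938 to 1626 CPM. Cyp2c54, a cytochrome P450 of the Cyp2c family, had 48.8, 226, 234, 148 and 56.6 CPM against 0.146, 0.913, 4.78, 3.98 and 5.71 CPM (log2 fold change 5.66 ± 0.91). It again showed no overlap, and normal livers had 144 to 417 CPM.

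Elovl3, an elongase of long-chain fatty acids expressed more in male than in female mouse liver, had 16.3, 7.66, 9.61, 104 and 3.33 CPM in TMZ tumours. In other tumours it had 0, 0.685, 0, 0.398 and 0.835 CPM, with no overlap and a fitted log2 fold change of 5.94 ± 1.02. Normal livers had 0 to 54.5 CPM. Serpinb1a, an inhibitor of neutrophil proteases, had 1.4, 25.4, 28.2, 5.54 and 74.0 CPM against 0.438, 0.799, 0.184, 1.79 and 1.11 CPM (log2 fold change 5.00 ± 0.92). Only the low value of Grow 2 fell within the range of the other tumours, and normal livers, at 3.16 to 4.38 CPM, were below 4 of the 5 TMZ tumours. Dpys, which opens the ring of dihydropyrimidines in pyrimidine breakdown, had 61.4, 81.2, 84.5, 57.5 and 53.2 CPM against 15.8, 40.7, 33.1, 17.3 and 18.9 CPM. It had the smallest of these differences (1.45 ± 0.27) and the narrowest spread, with no overlap, and normal livers had 59.3 to 104 CPM.

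On the lower side the 5 genes of smallest p were Ocstamp, Rasal1, Robo1, Sparc and Kif5c, with adjusted p values of 0.213 for Ocstamp and Rasal1 and 0.218 for the other 3. Ocstamp, known for its part in the fusion of osteoclast precursors, had 3.41, 1.88, 1.05, 1.38 and 3.58 CPM in TMZ tumours against 17.1, 6.96, 17.1, 5.76 and 26.3 CPM in other tumours (log2 fold change -2.71 ± 0.52). Rasal1, which switches Ras off by raising its GTP hydrolysis, had 1.24, 0.251, 0.352, 0 and 1.54 CPM against 12, 2.51, 10.1, 6.56 and 10.7 CPM (-3.68 ± 0.73). Kif5c, a heavy chain of the motor kinesin, had 5.58, 1.00, 0.938, 0.198 and 4.61 CPM against 73.9, 9.58, 33.9, 15.5 and 77.1 CPM (-4.12 ± 0.86). None of these 3 overlapped between the groups.

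Robo1, a receptor for Slit guidance proteins, had 2.63, 1.51, 0.703, 1.58 and 0.512 CPM in TMZ tumours against 10.4, 8.67, 10.5, 2.39 and 23.8 CPM in other tumours (-2.97 ± 0.62). Sparc, a glycoprotein of the matrix, had 103, 128, 124, 74.2 and 234 CPM against 988, 204, 509, 510 and 863 CPM (-2.22 ± 0.46). In each of these 2 genes 1 TMZ tumour reached into the range of the others, Grow 2 for Robo1 and Regress 3 for Sparc. In all 10 leading genes the estimates within Grow and within Regress had the same sign. The genes were chosen by smallest p in these same tumours, which favours such a match, so it is no separate support.

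**Figure D2:**
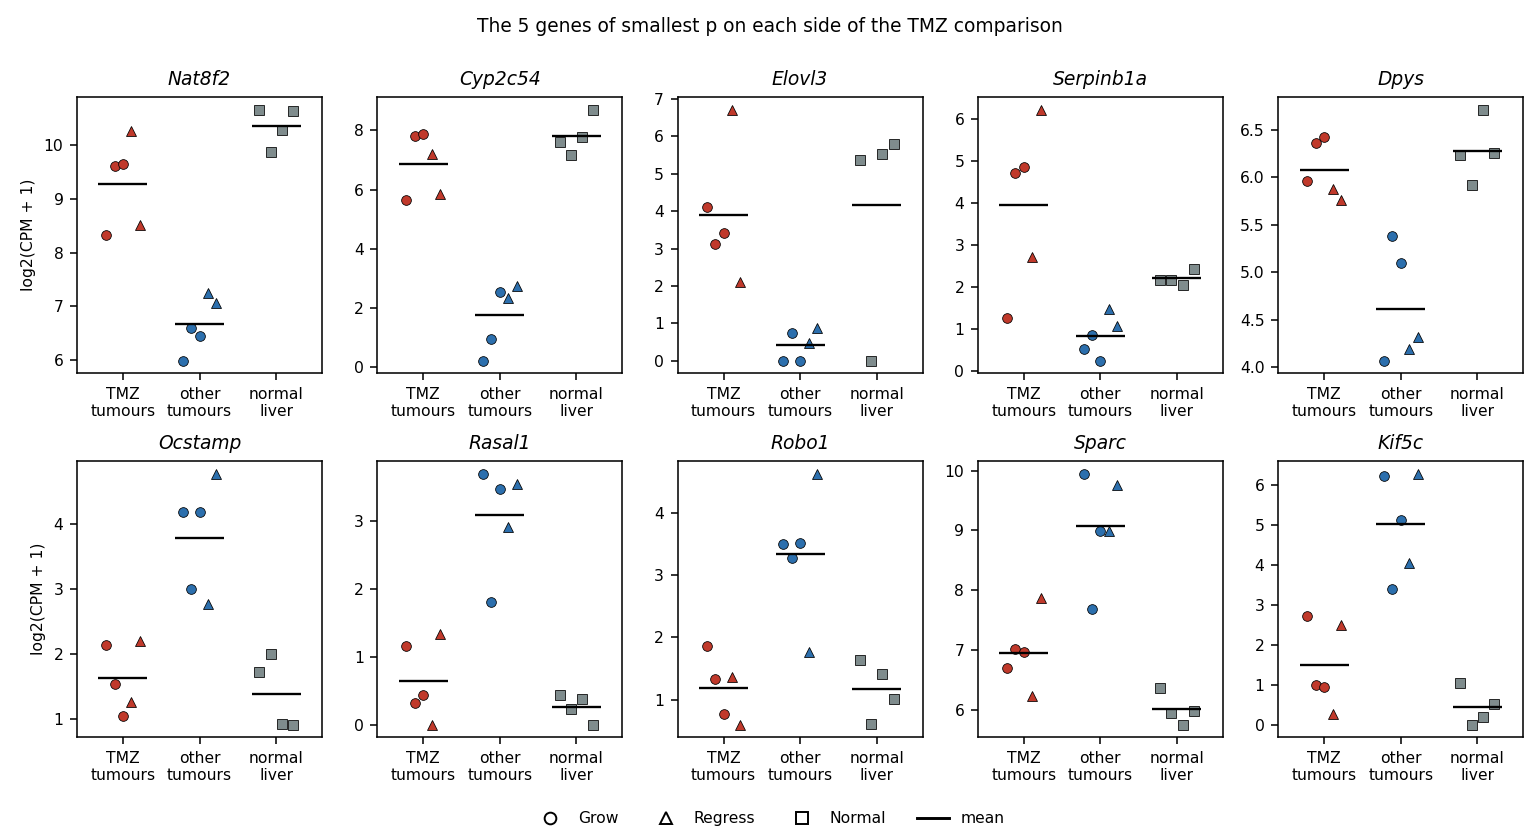
Levels of the 10 leading genes, as log2(CPM + 1) on the y axes, in each of the 5 TMZ tumours, the 5 other tumours and the 4 normal livers, with circles for Grow, triangles for Regress squares for normal liver and a line at the group mean. The upper 5 genes lay higher in TMZ tumours and the lower 5 lay lower, and 7 of the 10 show no overlap between TMZ and other tumours. The genes were chosen by smallest p in these tumours, which favours such separation.

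Genes of bile acid synthesis and uptake lay mostly on the higher side. Of 21 tested genes of bile acid synthesis and transport, 11 were higher and 0 lower in TMZ tumours at an unadjusted p under 0.05, 17 were above 0, and the median log2 fold change was 1.25. Over all features 6.18% were higher and 6.42% lower at that p, 47.7% were above 0, and 0.761% lay higher with no overlap. Cyp7a1, the rate-limiting enzyme of the classical pathway, had 23.7, 136, 141, 120 and 3.84 CPM in TMZ tumours against 0.657, 0, 0.920, 4.77 and 8.49 CPM in other tumours. Regress 3 was within the range of the others and the other 4 TMZ tumours were well above it (log2 fold change 5.59 ± 1.29, edgeR adjusted p = 0.218). Cyp7b1, the hydroxylase of the alternative pathway, had 47.1, 262, 269, 138 and 34.6 CPM against 1.09, 12.8, 10.5, 10.5 and 11.3 CPM, with no overlap (3.95 ± 0.78, adjusted p = 0.213). Cyp27a1, which starts that pathway at the side chain of cholesterol, had 102, 230, 226, 210 and 65.5 CPM against 22.6, 44.8, 36.0, 41.1 and 54.5 CPM, also with no overlap (2.07 ± 0.41, adjusted p = 0.213).

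Among the carriers that bring bile acids and other anions into hepatocytes, Slco1b2 had 294, 2606, 2770, 2000 and 760 CPM in TMZ tumours against 30.1, 168, 214, 121 and 269 CPM in other tumours. Its log2 fold change was 3.40 ± 0.75 (edgeR adjusted p = 0.218), and Slco1a1 (3.48 ± 1.14) and Slco1a4 (1.75 ± 0.59) also showed no overlap. Among the carriers that export bile acids and conjugates, the canalicular bile salt pump Abcb11 stood at 0.28 ± 0.43, and the multidrug resistance proteins Abcc2 at -0.52 ± 0.37 and Abcc3 at -0.16 ± 0.30. The bile acid receptor Nr1h4 stood at 0.50 ± 0.29, and Nr0b2, the repressor it induces, at -0.35 ± 0.53. With Grow 3 and Grow 4 left out the median of the list was 1.07, 17 of 21 genes were above 0, and 10 were higher and 1 lower at an unadjusted p under 0.05.

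Of 39 tested cytochrome P450 genes of families 1 to 4, 15 were higher and 3 lower in TMZ tumours at an unadjusted p under 0.05. Over all features the shares were 6.18% and 6.42%. The median log2 fold change was 0.95 and 31 of the 39 lay above 0, against 47.7% of all features. Besides Cyp2c54, the genes with no overlap were Cyp2c29, Cyp2c50 and Cyp4f14. Cyp2c29 had 142, 488, 515, 551 and 138 CPM in TMZ tumours against 6.79, 31.7, 67.3, 13.5 and 81.7 CPM in other tumours (3.21 ± 0.75, edgeR adjusted p = 0.218). Cyp4f14, a fatty acid hydroxylase, had 142, 191, 196, 146 and 145 CPM against 27.2, 125, 52.2, 21.3 and 46.2 CPM, an even level over all 5 TMZ tumours (1.67 ± 0.42, adjusted p = 0.218). The lower genes at that p were Cyp2b13, Cyp2b9 and Cyp2a4, which are expressed more in female than in male mouse liver. Members of the Cyp2c, Cyp2b and Cyp4a12 groups have near-identical copies, so the split of counts within each group is uncertain.

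Of 32 tested conjugating enzymes and drug transporters, 10 were higher (6.18% of all features) and 0 lower (6.42%) at an unadjusted p under 0.05. The median of this list was 0.67. The glucuronosyltransferase Ugt2b1 had 217, 424, 444, 509 and 252 CPM in TMZ tumours and 74.3, 152, 152, 87.1 and 68.6 CPM in other tumours, with no overlap (1.83 ± 0.36, adjusted p = 0.213, edgeR). The glutathione transferase Gsta3 had 375, 2256, 2331, 2858 and 736 CPM against 268, 287, 322, 479 and 350 CPM, with Grow 2 inside the range of the others (2.35 ± 0.54, adjusted p = 0.218). The medians without Grow 3 and Grow 4 were 0.96 for 38 cytochrome P450 genes, with 8 higher and 2 lower at an unadjusted p under 0.05, and 0.24 for the conjugating list.

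All mice were male, and genes expressed more in male than in female liver lay mostly on the higher side in TMZ tumours. Of 20 tested male-biased genes 12 were higher and 0 lower at an unadjusted p under 0.05, 17 were above 0 and the median was 2.02. Over all features 6.18% were higher and 6.42% lower at that p, and 47.7% were above 0. Of 15 tested female-biased genes 0 were higher and 4 lower, 6 were above 0 and the median was -1.06, and within Grow 2 were higher and 1 lower. Their mean log2 CPM overlapped, at 1.34 to 2.98 in TMZ tumours, 2.67 to 4.31 in other tumours and 0.22 to 3.61 in normal livers. Male-biased genes had 6.24 to 8.53, 3.55 to 6.04 and 5.09 to 9.24 in the same order, so normal livers overlapped both groups of tumours. Besides Elovl3, Cyp7b1, Slco1a1 and Ugt2b1, the major urinary protein Mup1 showed no overlap, although its level varied widely and its family has near-identical members. It had 1239, 263, 266, 37770 and 384 CPM in TMZ tumours and 6.64, 136, 39.9, 259 and 59.6 CPM in other tumours, and Regress 1 exceeded all 4 normal livers (36.3 to 32550 CPM). Cyp2a4, a steroid hydroxylase of the female pattern, had 688, 244, 256, 5.93 and 1448 CPM in TMZ tumours and 3173, 1634, 2304, 6580 and 1152 CPM in other tumours, with Regress 3 overlapping (-2.51 ± 0.99, edgeR adjusted p = 0.344). The male-biased median was 2.79 without Grow 3 and Grow 4, with all 20 genes above 0 and 8 higher at an unadjusted p under 0.05, while 1 of the female-biased genes was lower at that p.

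Within the growth hormone axis the receptor and its feedback genes stood higher. Cish, a suppressor of cytokine signalling that growth hormone induces through STAT5, had 33.9, 10.9, 9.96, 14.4 and 22.8 CPM in TMZ tumours against 3.06, 2.05, 5.70, 6.96 and 5.29 CPM in other tumours. Socs2, a suppressor of the same pathway, had 24.9, 28.6, 31.1, 58.7 and 21.5 CPM against 14.1, 4.45, 15.8, 6.76 and 16.3 CPM, and the receptor Ghr had 306, 320, 334, 807 and 272 CPM against 130, 267, 225, 188 and 110 CPM. None of the 3 overlapped, with log2 fold changes of 2.06 ± 0.44 (edgeR adjusted p = 0.218), 1.5 ± 0.41 (0.241) and 1.12 ± 0.40 (0.326).

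Bcl6, a repressor whose level in liver falls under persistent growth hormone, had 18.3, 1.38, 3.17, 3.36 and 2.56 CPM in TMZ tumours against 18.8, 32.8, 16.7, 24.1 and 24.9 CPM in other tumours. Grow 2 alone of the TMZ tumours reached the others (-2.12 ± 0.63, edgeR adjusted p = 0.266). Igfbp1, a binding protein of insulin-like growth factors, had 222, 161, 161, 44.9 and 168 CPM against 551, 167, 1126, 1040 and 1067 CPM, where Grow 5 lay at the level of the TMZ tumours (-2.37 ± 0.59, adjusted p = 0.218). The hormone Igf1 itself stood at 0.67 ± 0.47. Over the 20 tested genes of the axis the median was -0.05. At an unadjusted p under 0.05, 5 were higher (6.18% of all features) and 3 lower (6.42%).

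**Figure D3:**
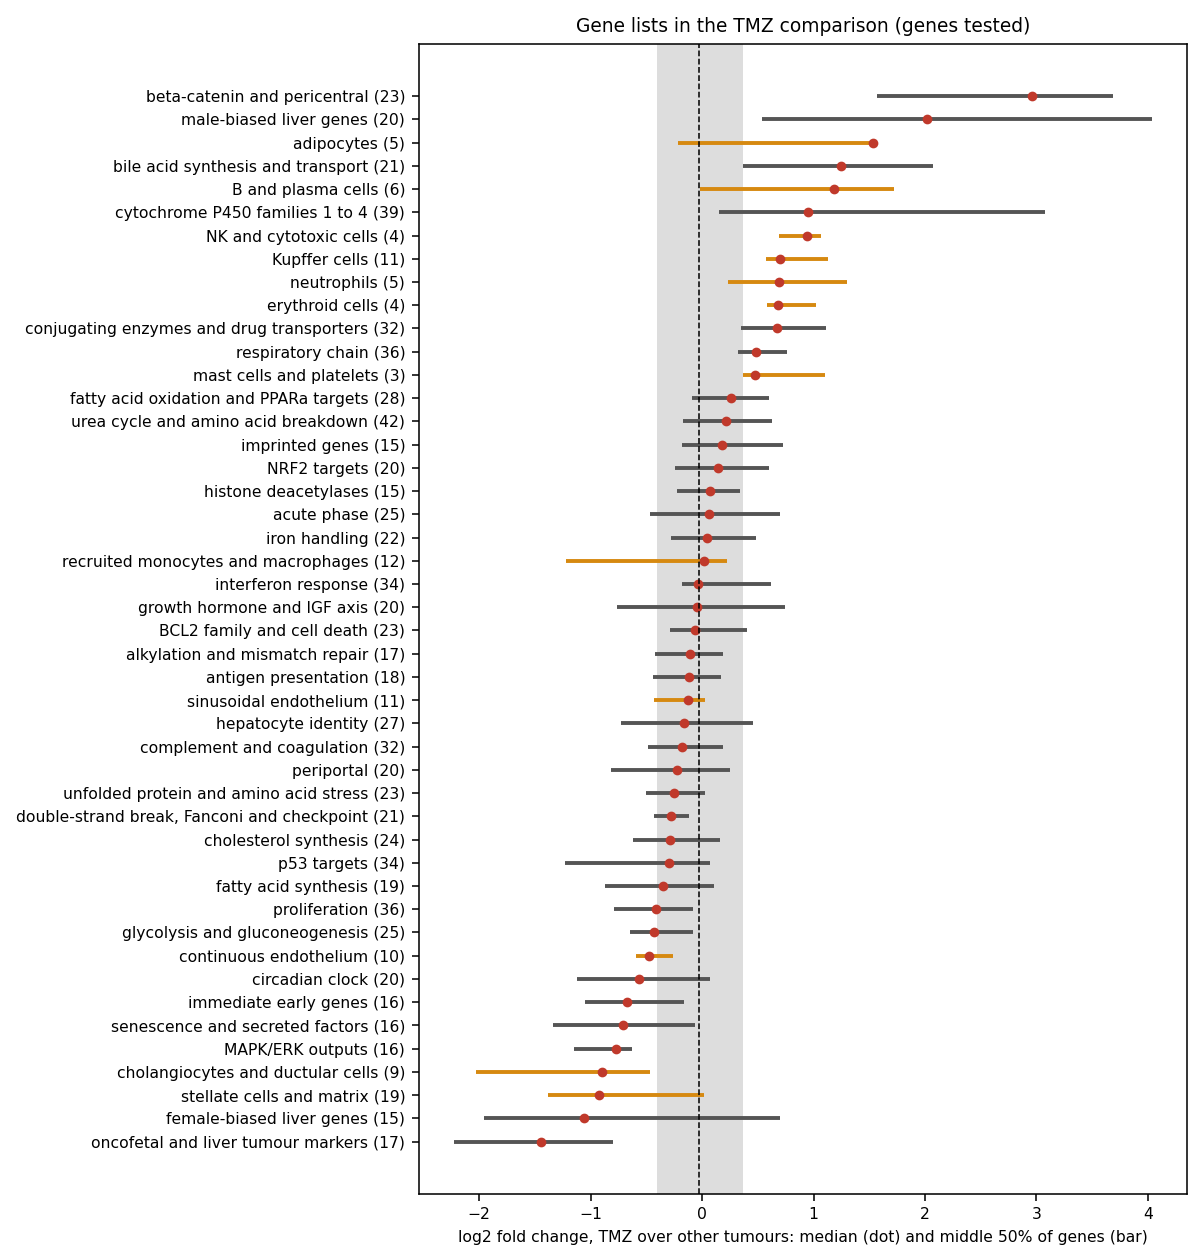
Median log2 fold change, TMZ tumours over other tumours (x axis), of each gene list with at least 3 tested genes (rows, number tested in brackets), with bars over the middle 50% of the list's genes and cell type lists in orange. The dashed line is the median of all 12882 features and the grey band their middle 50%. Pericentral, male-biased, bile acid and cytochrome P450 genes lie to the right (medians 2.96, 2.02, 1.25 and 0.95), and oncofetal and female-biased genes to the left (-1.45 and -1.06).

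Pericentral genes, which beta-catenin drives in the hepatocytes around the central vein, had the highest median of any programme list, and their level was highest in Grow 3 and Grow 4. All 23 tested genes were above 0, with a median of 2.96, and 8 were higher at an unadjusted p under 0.05 (6.18% of all features). The mean log2 CPM of the list was 4.41, 7.87, 7.83, 4.84 and 4.16 in TMZ tumours, against 2.47, 2.84, 3.16, 2.90 and 5.80 in other tumours and 4.81 to 5.82 in normal livers. Grow 3 and Grow 4 were thus above every normal liver, and among the other tumours Regress 4 stood at a normal level. Glul, glutamine synthetase, had 160, 9914, 9715, 239 and 146 CPM in TMZ tumours against 39.5, 43.7, 31.3, 22.9 and 1498 CPM in other tumours, and 225 to 586 CPM in normal livers. Its log2 fold change was 5.15 ± 3.35 (edgeR adjusted p = 0.507), and -0.40 with SAHA as a covariate. Without Grow 3 and Grow 4 the median of the list was 0.14, with 13 of 23 genes above 0 and 6 higher at an unadjusted p under 0.05. Oat, an ornithine aminotransferase, had 84.6, 2413, 2432, 210 and 184 CPM in TMZ tumours against 8.25, 11.5, 18.9, 12.1 and 51.8 CPM in other tumours. Prodh, a proline dehydrogenase, had 44.3, 161, 150, 64.9 and 36.4 CPM against 2.33, 15.9, 7.36, 17.9 and 22.7 CPM. Both showed no overlap between the groups. Axin2, a direct beta-catenin target, overlapped, with 2.63, 61.1, 56.7, 2.97 and 0.768 CPM in TMZ tumours and 0.657, 0.913, 0.552, 0.596 and 25.8 CPM in other tumours.

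**Figure D4:**
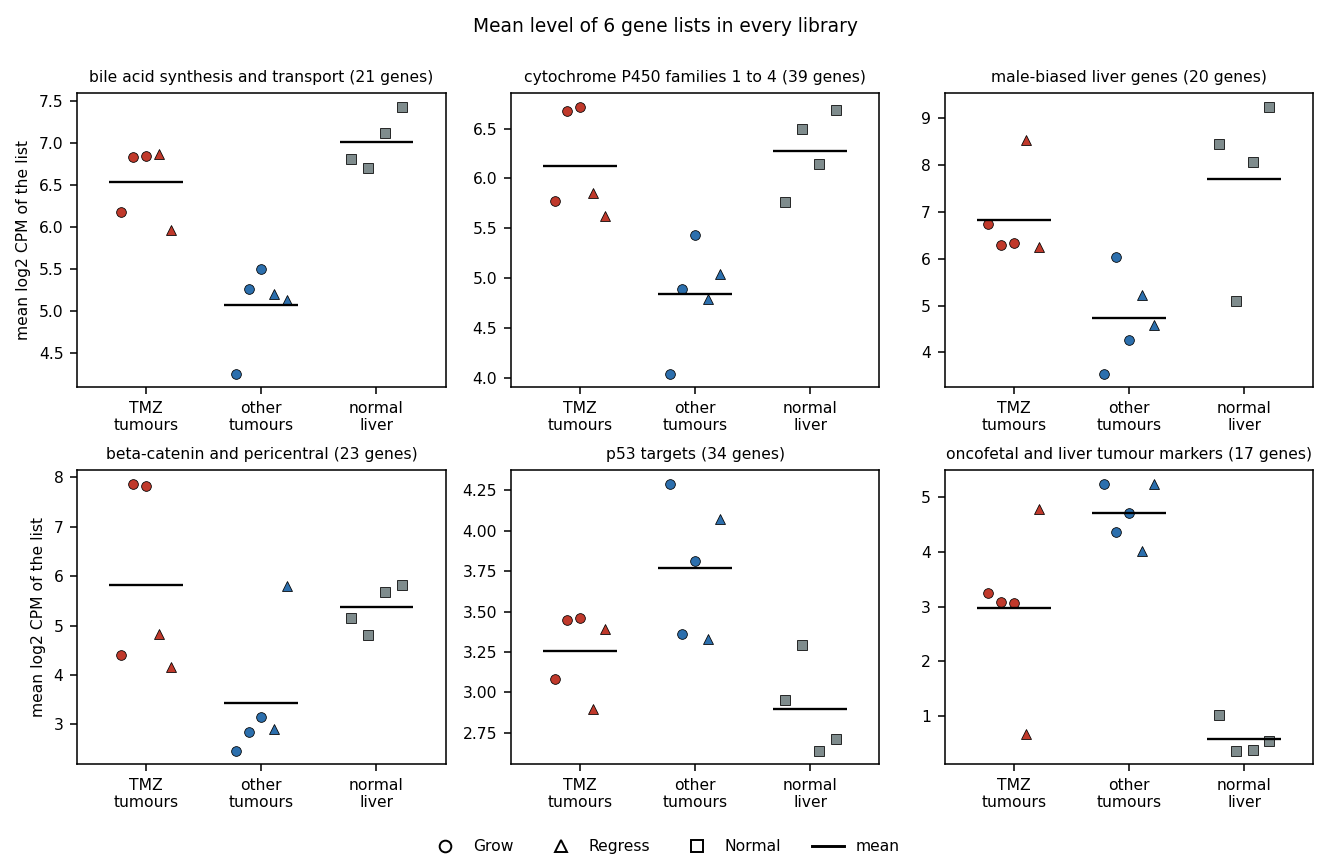
Mean log2 CPM of 6 gene lists (y axes) in each TMZ tumour, other tumour and normal liver, with circles for Grow, triangles for Regress, squares for normal liver and a line at the group mean. Bile acid, cytochrome P450 and male-biased means of all 5 TMZ tumours lie above all 5 other tumours, Grow 3, Grow 4 and Regress 4 stand apart in pericentral genes, and Regress 1 lies at the level of normal livers in oncofetal genes.

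Fetal and tumour markers stood lower in 4 of the 5 TMZ tumours, and Regress 3 was within the range of the other tumours. The mean log2 CPM of the list was 3.25, 3.08, 3.07, 0.68 and 4.78 in TMZ tumours and 5.23, 4.36, 4.71, 4.01 and 5.24 in other tumours, and the summed level was highest of all 10 in Regress 3, at 2273 CPM. Afp, the fetal serum protein used as a liver tumour marker, had 23.2, 72.2, 74.2, 0.593 and 62.5 CPM in TMZ tumours and 305, 77.4, 120, 223 and 425 CPM in other tumours. The groups did not overlap, though Grow 5 was close to Grow 3 and Grow 4, and the log2 fold change was -2.27 ± 0.90 (edgeR adjusted p = 0.344). Normal livers had 0.301 to 4.53 CPM, so 4 of the 5 TMZ tumours remained above them and Regress 1 did not. Gpc3, an oncofetal proteoglycan of the cell surface, had 53, 10.7, 11, 0.198 and 48.1 CPM against 256, 63.4, 291, 48.9 and 291 CPM, with Grow 2 just above Regress 2 (-2.95 ± 0.99, adjusted p = 0.298). Of 17 tested oncofetal and tumour markers, 0 were higher (6.18% of all features) and 8 lower (6.42%) at an unadjusted p under 0.05. The median of the list was -1.45 and 4 genes were above 0, against 47.7% of all features. Without Grow 3 and Grow 4 the median was -0.94 and 4 genes were lower at that p. Epcam, an adhesion protein of ductular and progenitor cells, was high in 1 library, with 56.1 CPM in Regress 3 and 0.155 to 4.15 CPM in the other TMZ tumours, against 0.184 to 4.31 CPM in other tumours.

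Cell cycle genes overlapped between the groups, except that 1 of the 36 tested proliferation genes, the cyclin Ccne1, was lower with no overlap. Its highest TMZ tumour, Regress 3 at 4.35 CPM, lay below its lowest other tumour, Grow 5 at 5.13 CPM. The log2 fold change of Ccne1 was -2.22 ± 0.52 (edgeR adjusted p = 0.218). Ccnd1, the cyclin of early G1, had 40.6, 37.7, 33.3, 11.5 and 21.5 CPM in TMZ tumours against 52.2, 38.5, 43.2, 50.7 and 45.4 CPM in other tumours, and only Grow 2 overlapped (-0.76 ± 0.30, edgeR adjusted p = 0.344). Mki67, a marker of cycling cells, had 12.2, 5.91, 5.28, 1.78 and 1.79 CPM against 8.83, 12.6, 18.0, 0 and 21.0 CPM, with Regress 2, the tumour given buffer, at 0 (-1.38 ± 0.84). Cdk1, the kinase of mitotic entry, stood at -0.10 ± 0.44, a sign that turned in 4 of the alternatives. Of 36 tested proliferation genes 0 were higher and 3 lower at an unadjusted p under 0.05, and the count of lower genes was near the 6.42% of all features. Of these genes 6 were above 0, against 47.7% of all features, and the median was -0.41. Their mean log2 CPM was 0.53 to 2.07 in TMZ tumours and 0.23 to 2.52 in other tumours, and within Grow the median was -0.12 with 14 of 36 above 0. Of 16 tested senescence and secreted factors, 0 were higher and 6 lower (median -0.71), and the adhesion protein Icam1 showed no overlap. Of 16 outputs of MAPK/ERK signalling, 1 was higher and 4 lower (median -0.77). Over all features 6.18% were higher and 6.42% lower. With Grow 3 and Grow 4 left out 3 senescence genes and 1 MAPK/ERK gene were lower. Bcl2, which holds back cell death, had 4.65, 1.00, 1.41, 1.98 and 2.30 CPM in TMZ tumours and 9.85, 6.28, 8.09, 4.37 and 7.93 CPM in other tumours, with Grow 2 and Regress 2 overlapping (-1.69 ± 0.43, adjusted p = 0.219). Over 23 tested genes of the BCL2 family and cell death the median was -0.06.

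Hdac1, a target of SAHA, had 20, 23, 24.4, 23.3 and 28.9 CPM in TMZ tumours and 22.1, 18.9, 21.9, 27.4 and 21.6 CPM in other tumours (log2 fold change 0.10, 95% interval -0.31 to 0.51), and the 15 tested histone deacetylases had a median of 0.07. Of 36 tested nuclear-encoded genes of the respiratory chain 34 were above 0 (47.7% of all features), with a median of 0.48, yet 0 had an unadjusted p under 0.05. Their mean log2 CPM overlapped between the groups, at 6.37 to 8.18 in TMZ tumours and 6.07 to 7.61 in other tumours. Without Grow 3 and Grow 4 all 36 were above 0 with a median of 0.43.

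Marker sums of other liver cells overlapped between the groups, and in bulk tissue fewer cells of a type and less RNA per cell cannot be told apart. The 20 measured genes of stellate cells and matrix summed to 572 to 2705 CPM in TMZ tumours, 1175 to 5129 CPM in other tumours and 879 to 2581 CPM in normal livers. Of the 19 tested, 5 had a log2 fold change above 0, the median was -0.93, and 2 were lower at an unadjusted p under 0.05 (6.42% of all features). Within Grow the median was -0.13 with 9 of 19 above 0, and Regress 4 stood apart with a mean log2 CPM of 6.29, against 2.83 to 4.00 in the 5 TMZ tumours and 3.03 to 3.80 in the other 4 tumours. Sparc, among the leading genes, is a member of that list. The 14 measured markers of cholangiocytes and ductular cells summed to 182 to 855 CPM in TMZ tumours, 770 to 1529 CPM in other tumours and 248 to 407 CPM in normal livers. Of the 9 tested, 4 were lower at that p, and 1 without Grow 3 and Grow 4. The 12 measured Kupffer cell markers summed to 568 to 1149 CPM in TMZ tumours, 179 to 701 CPM in other tumours and 592 to 1438 CPM in normal livers. Of the 11 tested, 10 were above 0 (47.7% of all features), with a median of 0.70. At an unadjusted p under 0.05, 3 were higher (6.18% of all features) and 0 lower, and 3 were higher without Grow 3 and Grow 4. Markers of neutrophils, the cells whose proteases Serpinb1a inhibits, summed to 12.2 to 72.0 CPM over 9 measured genes in TMZ tumours and 6.26 to 30.6 CPM in other tumours. Medians were 1.53 for adipocyte markers (5 tested) and 1.18 for markers of B and plasma cells (6 tested), but -0.80 (4 tested) and 0.26 without Grow 3 and Grow 4. The markers Klrb1c of NK cells, Lep of adipocytes and 7 enzymes of pancreatic acinar cells were at 0 in all 10 tumours. The part of these cell types in the gene results was not tested.

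Regress and Grow tumours were also compared separately, each against tumours of the same class. Within Grow, SAHA with TMZ (3 tumours) against the other treatments (3 tumours) gave 0 called features (0%), a lowest adjusted p of 0.454 and 900 features (6.99%) at an unadjusted p under 0.05, 558 (4.33%) of them higher and 342 (2.65%) lower. Within Regress, TMZ alone (2 tumours) against buffer or DMSO (2 tumours) gave 0 called features (0%), a lowest adjusted p of 0.340 and 1715 (13.3%) at an unadjusted p under 0.05, 678 (5.26%) of them higher and 1037 (8.05%) lower. All TMZ tumours lay above the others of their class for 879 features (6.82%) within Grow and 2250 (17.5%) within Regress, and below them for 1020 (7.92%) and 2708 (21%). In both classes at once this held for 189 features (1.47%) above and 314 (2.44%) below. In both classes limma-voom called 0, with 967 and 1372 features at that p, while DESeq2 called 194 and 182. The difference between the 2 effects, tested as an interaction, also gave 0 called features (0%), a lowest adjusted p of 0.777 and 786 (6.1%) at an unadjusted p under 0.05, 551 (4.28%) with a larger estimate in Grow and 235 (1.82%) with a larger one in Regress. limma-voom called 0 there, with 591 at that p, and DESeq2 called 41. In simulated counts edgeR called 26.2% of log2 fold changes of 2 within Grow, 3.03% within Regress and 0% for the interaction. The absence of calls in these 3 tests therefore does not show the absence of a difference.

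Pericentral genes were the list in which the classes stood furthest apart. Their median log2 fold change was 4.44 within Grow, with all 23 above 0, and -1 within Regress, with 8 above 0. In the interaction 20 of the 23 had an unadjusted p under 0.05. Glul stood at 7.43 within Grow and -1.98 within Regress, the first set by Grow 3 and Grow 4 and the second by Regress 4 (interaction adjusted p = 0.777, edgeR). Within Regress the stellate and matrix list had a median of -2.16, where the summed level of Regress 4 was the highest of all 10 tumours.

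**Figure D5:**
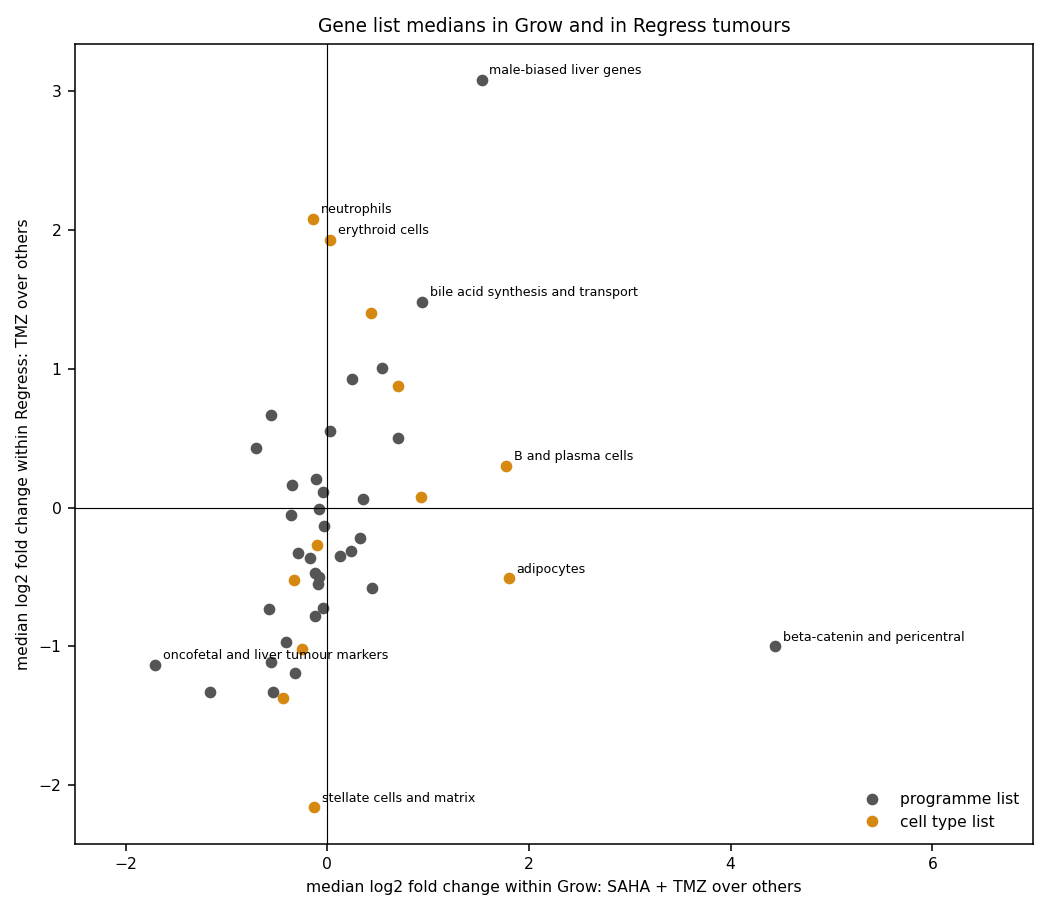
Median log2 fold change of each gene list with at least 3 tested genes within Grow (x axis, SAHA + TMZ over other treatments) and within Regress (y axis, TMZ over buffer or DMSO), with cell type lists in orange and other lists in grey. Male-biased genes lie at 1.53 within Grow and 3.08 within Regress, oncofetal markers lie below 0 on both axes, and pericentral genes stand apart at 4.44 within Grow and -1 within Regress.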

How the data were processed

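Per the labels' protocols, libraries of all 14 samples came from an Illumina TruSeq RNA v2 kit. It does not mark strand, so reads of overlapping and antisense genes are not separated. Salmon 0.3.1, edgeR 3.14.0 and mm9 appear in the submitters' processing notes, with no roles. The authors deposited expected counts, which are estimates with decimals, for 35230 RefSeq rows, and 1 column without values was not used. Rows were matched to symbols through RefSeq GRCm38.p6 (26077) or GENCODE M21 (148), used for names only. The 9005 unmatched rows, 3.52% to 12.05% of a library's counts, stayed as their own features. Counts were summed per symbol and rounded, giving 30436 features, 21431 with a symbol. CPM uses TMM factors over all 14 libraries.

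The 10 tumours entered a robust edgeR 4.0.16 quasi-likelihood fit (R 4.3.3, limma 3.58.1, TMM, filterByExpr) with growth class and TMZ as terms, with calls made below 0.05 after Benjamini-Hochberg adjustment. The biological coefficient of variation was 0.479. A fit with 4 groups gave the effects within Grow and Regress and their difference. Log2 values used a prior count of 2. DESeq2 1.42.0 and limma-voom were alternatives, beside other normalizations, filters, covariates and left-out libraries. The code was tested on simulated counts. The labels do not say that samples came from separate animals, so p-values cover only the spread among these libraries, which may be technical.

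Members, tests and gene lists were chosen with earlier results of these data known. Genes named were the called genes or, with none called, the 5 of smallest p in each direction with a symbol and a mean log2 CPM of at least 1, plus a set of DNA repair, p53, growth and tumour marker genes. Other list members were chosen after their values were seen. Some genes of these lists are not reported here by name. No sequence is printed.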

Additional observations from a re-analysis of the deposited data

Results flagged for a closer look

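Among 60 groups of 5 samples examined, the 5 TMZ and the 5 other tumours for each of 29 named genes and for the library totals, 5 held a library far from the rest by Dixon's criterion, and chance flags about 1 in 20 groups. Afp was at 0.593 CPM in Regress 1, far below the other 4 TMZ tumours. Among the other tumours Regress 2, the tumour given buffer, was far below the rest in 3 genes: Mki67 at 0 CPM, Cdk1 at 1.99 CPM and the mismatch repair gene Msh6 at 1.79 CPM. Glul was at 1498 CPM in Regress 4, given DMSO, far above the other 4.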

How the results depend on the processing

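No paired analysis was possible because TMZ and other tumours of one growth class share no replicate number. DESeq2 called 335 features for TMZ against other tumours, 194 within Grow, 182 within Regress and 41 for the difference of the effects, where edgeR called 0 in each. In simulated counts 25%, 28.5%, 31.1% and 33.7% of DESeq2's calls were false in that order, against 2.88%, 3.8%, 2.22% and 3.45% of edgeR's. Leaving out each library in turn gave 0 to 497, 0 to 448, 0 to 5 and 0 to 21 features in the same order, the highest without Grow 2, or without Regress 3 within Regress. Without Grow 2 the TMZ tumours of Grow were only Grow 3 and Grow 4, which may share an animal. The other alternatives for TMZ against other tumours, among them limma-voom, another scaling, filters, SAHA as a covariate, Grow 3 and Grow 4 summed or left out, and a fit with all 14 samples, called 0. The 10 leading genes, chosen by smallest p in these tumours, kept their direction in every alternative in which they were tested, which that choice favours. Of 724 alternative values of single genes, 677 stayed in direction and on their side of the threshold, 24 moved past it, all with DESeq2 or without Grow 2 or Regress 3, and 23 turned sign, in 7 genes. On the log2 scale, leaving out each library in turn gave -0.24 to 0.08 for Mpg, -0.43 to 0.02 for Parp1, -0.42 to 0.34 for Ccng1, -0.30 to 0.01 for Bax, -0.32 to 0.25 for Gdf15 and -0.40 to 0.18 for Cdk1. Mpg was at 0.03, Ccng1 at 0.27 and Glul at -0.40 with SAHA as a covariate. With the trend over transcript length removed, Ccng1 was at 0.05 and Cdk1 at 0.17. Gdf15 was at 0.01 with DESeq2 and with RLE size factors, at 0.10 with limma-voom, at 0 over features with a symbol only and at 0.06 with no growth covariate. The cause of these changes was not tested. Leaving out Grow 3 and Grow 4 together, with or without Regress 1, was chosen after seeing the data. With 5 libraries on each side, 2 of them in Regress, and totals down to 4.71 M estimated counts, genes of a few CPM rest on few reads.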
